A study of Mus musculus with 24 samples.

Results

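Zfp36, Zfp36l1, Zfp36l2, Zc3h12a, Btg1, Tob1 and Tob2 encode regulators that hasten the decay of messenger RNA. Their probes were found by matching the RefSeq transcript named for each spot to a gene symbol, with no use of the measured values. This gave 7 of the 23787 genes with a symbol on the array and 9 of its 56605 probes, since Zfp36l1 and Btg1 each had 2 probes for the same transcript. All 9 probes were well above background on all 24 arrays, so that every member passed the filter that left 37687 probes for testing.

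TM3 is a Leydig cell line of the mouse. Cells were detached, washed and held in buffer in an electroporation cuvette at room temperature, and were then either given 80 nanosecond pulses of an electric field (nsPEF, 60 ns pulses of 5.5 kV amplitude, 14 kV/cm, within 180 s) or handled in the same way without pulses (sham). RNA was taken at 0, 4 and 24 h from 4 biological replicates of each treatment, and each of the 24 samples was hybridized with Cy3 label to an array of its own. The 6 groups are sham at 0 h, nsPEF at 0 h, sham at 4 h, nsPEF at 4 h, sham at 24 h and nsPEF at 24 h, and all of them were cells of this line that had been through the detachment and the cuvette. The cells were not measured before detachment. The paper describes the changes over time as those of cells in standard culture. It states that the later cells were harvested quickly, whereas the preparation before the pulses was prolonged. A difference from 0 h thus also sets cells straight from the cuvette against cells from culture, with different handling before harvest. Effects of culture and of handling were not tested apart from time.

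A level is given here as the log2 of the processed signal of a probe, relative to the 75th percentile of all transcript spots on the same array, and a difference is a difference of such levels. A change was called where the Benjamini-Hochberg adjusted p of limma, taken over all tested probes, was under 0.05. The signal of a probe also depends on the probe, so levels are compared between groups and never between probes.

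The 75th percentile of the signal ranged from 300.3 to 787 intensity units among the arrays, and 57.5% to 62.1% of the probes were well above background on the sham arrays against 51.2% to 57.2% on the nsPEF arrays. Each of the 3 slides carried the 8 arrays of a time point, with the 12 sham arrays in the first row and the 12 nsPEF arrays in the second row of their slides. Time therefore cannot be told apart from slide, nor treatment from array row. Of the Leydig markers Star, Cyp17a1 and Nr5a1 were well above background on all 24 arrays, Cyp11a1, Hsd3b6, Lhcgr and Hsd17b3 were so on 0 arrays and Hsd3b1 on 1 array. The Leydig marker Insl3 had 0 probes. Among markers of other cells, Acta2, Cnn1, Sox9, Rhox5, Csf1r, Cd68 and Pecam1 were well above background on all 24 arrays. The smooth muscle markers Des and Myh11 were so on 22 and 17 arrays. Adgre1 and Ptprc, which define macrophages and leukocytes, were so on 0 to 2 arrays. The same held for the endothelial Cdh5 and Kdr and the Sertoli markers Amh, Fshr and Dhh. Of the germ cell markers Ddx4 was well above background on 16 arrays, Dazl on 2, Sycp3 on 1 and Stra8 on 0.

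Most messenger RNAs are removed after their poly(A) tail has been shortened, mainly by the CCR4-NOT deadenylase complex, and decapping and degradation from both ends follow. Zfp36 (tristetraprolin), Zfp36l1 and Zfp36l2 are zinc finger proteins that bind AU-rich elements, which are common in short-lived transcripts of cytokines, growth factors and early response genes, and bring CCR4-NOT to them. Zc3h12a (regnase-1) is an endonuclease that cuts stem-loops in inflammatory transcripts. Btg1, Tob1 and Tob2 are antiproliferative proteins that bind some, not all, of the CCR4-NOT subunits with nuclease activity. The Tob proteins also bind the poly(A) binding protein. Zfp36 is itself an early response gene of serum and growth factors, with a short-lived transcript.

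The promoter table of RefSeq (GRCm38.p6) held an entry for 6 of the 7 members, namely Zfp36, Zfp36l1, Zc3h12a, Btg1, Tob1 and Tob2. The 250 bases before the listed start are shown for Zfp36, Zfp36l1 and Tob1, whose probes were all called lower at 4 h in both treatments. They lie at chr7:28379229-28379478 on the minus strand for Zfp36, at chr12:80113014-80113263 on the minus strand for Zfp36l1 and at chr11:94211204-94211453 on the plus strand for Tob1, and each is written 5′ to 3′ with matches to a searched motif in capitals.
Zfp36: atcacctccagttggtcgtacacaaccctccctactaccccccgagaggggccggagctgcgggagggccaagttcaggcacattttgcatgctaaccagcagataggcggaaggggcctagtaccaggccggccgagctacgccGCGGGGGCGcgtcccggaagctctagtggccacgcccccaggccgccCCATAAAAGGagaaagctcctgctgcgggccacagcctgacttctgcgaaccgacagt
Zfp36l1: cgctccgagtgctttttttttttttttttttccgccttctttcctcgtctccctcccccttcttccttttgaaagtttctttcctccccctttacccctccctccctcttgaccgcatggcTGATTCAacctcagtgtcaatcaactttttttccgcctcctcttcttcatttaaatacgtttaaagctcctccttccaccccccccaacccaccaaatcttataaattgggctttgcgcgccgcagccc
Tob1: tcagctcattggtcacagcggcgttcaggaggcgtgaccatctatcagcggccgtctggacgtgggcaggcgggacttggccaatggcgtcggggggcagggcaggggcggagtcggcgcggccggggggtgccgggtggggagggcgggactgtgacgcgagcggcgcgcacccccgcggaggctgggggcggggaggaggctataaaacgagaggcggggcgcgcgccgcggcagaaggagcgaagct
The motifs were searched on both strands in the window from 250 bases before to 50 bases after the start. In Zfp36 the capitals mark, from left to right, an Egr site at 105 to 97 bases and a CArG box, the core of the serum response element, at 58 to 49 bases before the start. In Zfp36l1 they mark an AP-1 site at 129 to 123 bases before the start. The CArG box occurred in 1.63% of the 32851 promoters of the table, the Egr motif GCGNGGGCG in 5.55% and the AP-1 motif TGANTCA in 7.81%. The CRE (TGACGTCA, 1.79% of all promoters) and the NF-kB motif (4.51%) had no match in the 6 members, and Tob1 had no match to any of the 5 motifs. The listed start of Tob1 lies inside the annotated gene, which begins at chr11:94209842, and the result for Tob1 holds for this listed start only. A match describes the letters only.

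Zfp36 had by far the largest change of the members, a fall between 0 h and 4 h that was of the same size in sham and nsPEF cells. On the sham arrays its level was 3.83, 3.78, 3.79 and 3.89 at 0 h, -0.67, -0.67, -0.54 and -0.61 at 4 h, then -0.22, -0.36, -0.04 and -0.31 at 24 h. On the nsPEF arrays it was 3.74, 3.95, 3.88 and 3.94 at 0 h, -0.52, -0.61, -0.66 and -0.47 at 4 h, then -0.24, -0.50, -0.12 and -0.64 at 24 h. The 8 arrays at 0 h lay far above the other 16, and at each time point the sham and nsPEF arrays overlapped.

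From 0 h to 4 h Zfp36 fell by 4.44 on the log2 scale in sham cells (SE 0.09, n = 4 against 4, a fall of 21.8-fold, adjusted p = 1.13e-18). Only 13 of the tested probes (0.0345%), Zfp36 included, fell as far in this comparison. In nsPEF cells the difference was -4.44 (SE 0.09, 21.7-fold, adjusted p = 9.74e-19). At 24 h the gene was still lower than at 0 h by 16.6-fold in sham cells (difference -4.06, adjusted p = 2.02e-17) and by 19.0-fold in nsPEF cells (difference -4.25, adjusted p = 8.57e-18). Between 4 h and 24 h the level rose in sham cells (difference 0.39, SE 0.09, adjusted p = 0.00106), where the groups did not overlap. The corresponding difference in nsPEF cells was 0.19 and was not called (adjusted p = 0.0876), but it was called without replicate 4 of nsPEF at 24 h (0.28, adjusted p = 0.0101), without replicate 4 of all groups (0.31, 0.0159), with spike-in scaling (0.59, 0.000113) and under 2 other alternatives. RNA was taken from whole cell pellets, so a lower level in every cell and a loss in part of the cells cannot be told apart. As cells were not measured before detachment, how the level at 0 h relates to that of undisturbed cells is not known.

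**Figure D1:**
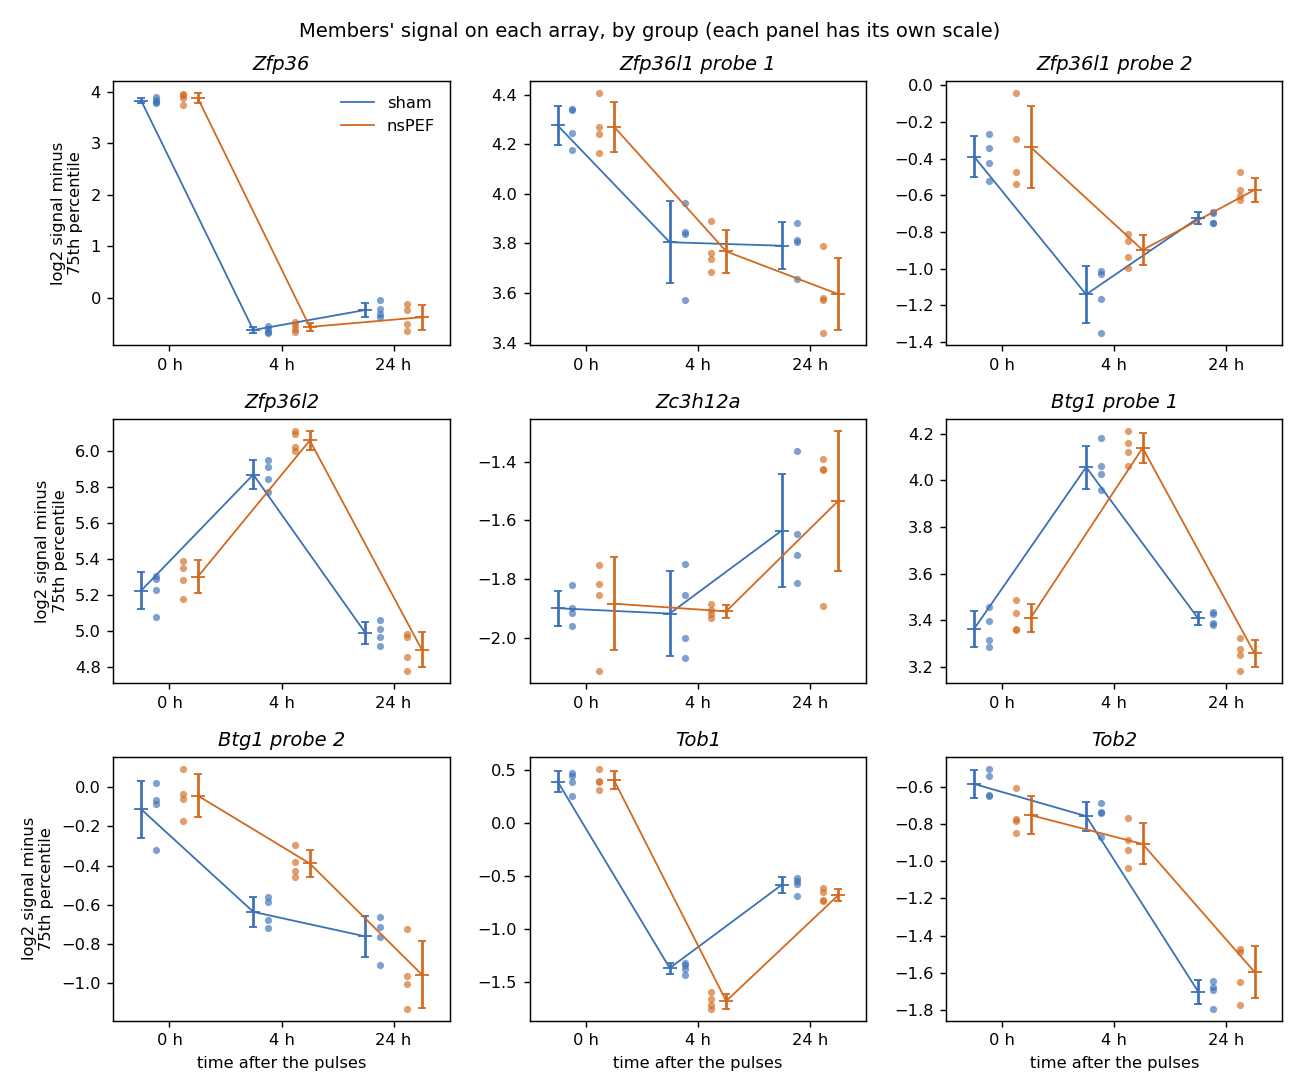
Level of each member probe (vertical axis, log2 signal minus the 75th percentile of the array, a separate scale for each panel) at 0, 4 and 24 h in sham (blue) and nsPEF cells (orange). Dots are arrays (n = 4 a group), dashes with bars are the mean and SD, and lines join the means: Zfp36 drops from about 3.8 to below 0, Tob1 is lowest at 4 h, Tob2 at 24 h, and Zfp36l2 and probe 1 of Btg1 peak at 4 h. With spike-in scaling, probe 1 of Btg1 did not fall from 4 h to 24 h in sham cells (-0.0003, adjusted p = 0.997).

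Zfp36l1 also fell, but far less, and its 2 probes agreed at 4 h. For probe 1 the sham arrays ranged from 4.18 to 4.34 at 0 h, from 3.57 to 3.96 at 4 h and from 3.66 to 3.88 at 24 h, and the nsPEF arrays from 4.17 to 4.41, from 3.69 to 3.89 and from 3.44 to 3.79. For probe 2 the sham arrays ranged from -0.52 to -0.27 at 0 h, from -1.35 to -1.01 at 4 h and from -0.75 to -0.69 at 24 h, and the nsPEF arrays from -0.54 to -0.04, from -0.99 to -0.81 and from -0.63 to -0.48. For both probes every array at 4 h lay below every array at 0 h of the same treatment. The difference at 4 h in sham cells was -0.47 for probe 1 (SE 0.08, adjusted p = 6.09e-05) and -0.75 for probe 2 (SE 0.09, adjusted p = 4.37e-07), and in nsPEF cells it was -0.50 and -0.56. Thereafter the probes parted. Probe 2 rose again from 4 h to 24 h (difference 0.42 in sham and 0.33 in nsPEF cells, adjusted p = 0.000554 and 0.00432), whereas probe 1 differed by -0.01 and -0.17 over the same interval and was not called.

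Zfp36l2 went the other way at 4 h. Its sham arrays read 5.23, 5.30, 5.08 and 5.29 at 0 h, 5.85, 5.91, 5.95 and 5.77 at 4 h, then 5.01, 4.92, 5.06 and 4.97 at 24 h. Its nsPEF arrays read 5.39, 5.35, 5.28 and 5.18 at 0 h, 6.11, 6.02, 6.09 and 6.00 at 4 h, then 4.98, 4.97, 4.86 and 4.78 at 24 h. The arrays at 4 h stood above all others and those at 24 h below all others. The gene rose by 4 h with a difference of 0.64 in sham cells (SE 0.06, 1.56-fold, adjusted p = 1.77e-08) and of 0.76 in nsPEF cells (SE 0.06, 1.69-fold, adjusted p = 1.46e-09). Between 4 h and 24 h its level then changed by -0.88 (sham) and -1.16 (nsPEF), and with spike-in scaling in place of the 75th percentile the differences were -0.23 and -0.76. Over the first 4 h, thus, the transcripts of 2 of the 3 AU-rich element binding proteins declined while that of Zfp36l2 increased.

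Zc3h12a had no called change from 0 h to 4 h. Its sham arrays ranged from -1.96 to -1.82 at 0 h, from -2.07 to -1.75 at 4 h and from -1.81 to -1.37 at 24 h, and its nsPEF arrays from -2.11 to -1.75, from -1.93 to -1.88 and from -1.89 to -1.39. In the order of the group means, from nsPEF at 24 h down to sham at 4 h, every neighbouring pair of groups overlapped. The difference between 4 h and 0 h was -0.02 in sham (95% interval -0.24 to 0.21) and -0.03 in nsPEF cells (95% interval -0.25 to 0.20). At 24 h it stood 0.26 above 0 h in sham cells, which was not called (adjusted p = 0.0633), and 0.35 above 0 h in nsPEF cells (SE 0.11, adjusted p = 0.0138). From 4 h to 24 h it differed by 0.28 in sham and 0.38 in nsPEF cells (adjusted p = 0.0317 and 0.00579), and 10 of 42 alternatives ended the first of these calls (among them the omission of replicate 2 or 3 of sham at 4 h, of replicate 1 or 4 of sham at 24 h and of replicate 2, 3 or 4 of all groups, adjusted p between 0.052 and 0.138) and 2 the second (normexp, 0.08, and without replicate 2 of all groups, 0.0534). The call at 24 h against 0 h in nsPEF cells was lost without replicate 3 of nsPEF at 0 h (adjusted p = 0.0591), without replicate 2 or 3 of all groups (0.0579 and 0.173) and with normexp background correction (0.114).

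The 2 probes of Btg1 disagreed in direction at 4 h. Probe 1 read 3.31, 3.46, 3.29 and 3.40 at 0 h, 4.18, 4.03, 4.06 and 3.96 at 4 h, then 3.38, 3.43, 3.44 and 3.39 at 24 h on the sham arrays. Probe 2 read -0.09, -0.06, -0.32 and 0.02 at 0 h, -0.68, -0.56, -0.59 and -0.72 at 4 h, then -0.71, -0.66, -0.76 and -0.91 at 24 h on the same arrays. By probe 1 the 4 h arrays stood apart above the others, and by probe 2 the 0 h arrays stood apart above the others. The difference at 4 h was 0.69 for probe 1 (SE 0.05, adjusted p = 4.01e-10) and -0.52 for probe 2 (SE 0.08, adjusted p = 2.02e-05) in sham cells.

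In nsPEF cells probe 1 of Btg1 ranged from 3.36 to 3.49 at 0 h, from 4.06 to 4.21 at 4 h and from 3.18 to 3.32 at 24 h. Probe 2 ranged there from -0.17 to 0.10, from -0.46 to -0.29 and from -1.13 to -0.72. The opposite directions at 4 h were thus seen again, with differences of 0.73 and -0.35 (adjusted p = 1.75e-10 and 0.00145). The mean of the 2 probes differed by 0.08 between 4 h and 0 h in sham cells (adjusted p = 0.224) and by 0.19 in nsPEF cells (adjusted p = 0.00754), and as the probes disagree no direction is given for the gene. Both probes carry the same transcript name, and which part of the transcript each one binds is not given in the sources used here.

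Tob1 fell by 4 h and rose again in part by 24 h. On the sham arrays it read 0.45, 0.39, 0.26 and 0.47 at 0 h, -1.34, -1.32, -1.38 and -1.44 at 4 h, then -0.55, -0.58, -0.52 and -0.69 at 24 h. On the nsPEF arrays it read 0.38, 0.31, 0.51 and 0.40 at 0 h, -1.66, -1.59, -1.75 and -1.72 at 4 h, then -0.61, -0.73, -0.73 and -0.65 at 24 h. The 3 time points did not overlap within either treatment, and at 4 h the nsPEF arrays all lay below the sham arrays. From 0 h to 4 h it fell by 1.76 on the log2 scale in sham cells (SE 0.06, 3.38-fold, adjusted p = 9e-16) and by 2.08 in nsPEF cells (SE 0.06, 4.23-fold, adjusted p = 6.87e-17). At 24 h it remained below 0 h by 1.96-fold in sham and by 2.12-fold in nsPEF cells (adjusted p = 1.02e-10 and 1.67e-11). The gain from 4 h to 24 h was 0.78 in sham and 1.00 in nsPEF cells.

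Tob2 followed a later course than Tob1. Its sham arrays read -0.54, -0.65, -0.50 and -0.65 at 0 h, -0.73, -0.74, -0.87 and -0.69 at 4 h, then -1.69, -1.67, -1.79 and -1.64 at 24 h. Its nsPEF arrays read -0.85, -0.78, -0.77 and -0.60 at 0 h, -0.89, -0.77, -1.03 and -0.94 at 4 h, then -1.77, -1.65, -1.49 and -1.47 at 24 h. The 8 arrays at 24 h lay below all 16 others, and the earlier groups overlapped in part. At 24 h the gene was lower than at 0 h by 2.17-fold in sham (difference -1.12, SE 0.07, adjusted p = 3.82e-10) and by 1.80-fold in nsPEF cells (difference -0.84, SE 0.07, adjusted p = 1.72e-08). The difference at 4 h was -0.17 in sham (adjusted p = 0.0458) and -0.16 in nsPEF cells (adjusted p = 0.0701), and the call in sham cells was lost under 21 of 42 alternatives, among them 14 that left out replicates.

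**Figure D2:**
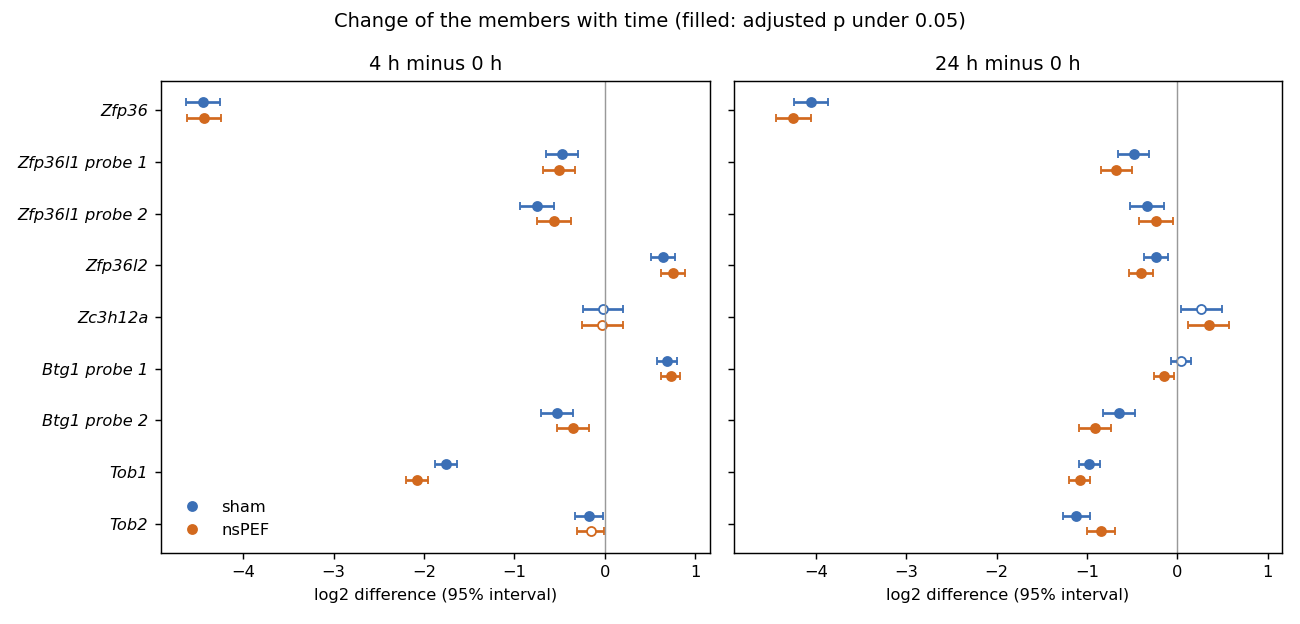
Log2 difference from 0 h (horizontal axis) for each member probe (rows) at 4 h (left) and 24 h (right) in sham (blue) and nsPEF cells (orange), with 95% intervals, filled where the adjusted p was under 0.05. Zfp36 lies near -4 in all 4 sets, Tob1 near -2 at 4 h and -1 at 24 h, and at 4 h Zfp36l2 and probe 1 of Btg1 are the only probes above 0 with a call.

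Counted over the 9 probes, 2 were called higher and 6 lower at 4 h than at 0 h in sham cells, where 29.0% of all tested probes were called higher and 30.3% lower. At 24 h against 0 h 0 were called higher and 7 lower, against 18.1% and 18.6% of all probes. From 4 h to 24 h 4 were called higher and 3 lower (29.0% and 28.6% of all probes). In nsPEF cells 2 were called higher and 5 lower at 4 h against 0 h (32.8% and 28.4% of all probes), 1 higher and 8 lower at 24 h against 0 h (24.1% and 18.3%), and 3 higher and 4 lower at 24 h against 4 h (28.4% and 28.3%). The median difference of the 9 probes at 24 h against 0 h was -0.48 in sham and -0.67 in nsPEF cells, and that of all tested probes was 0.02 and 0.07. The 3 sets of comparisons within a treatment share arrays and are not independent of each other. The members were chosen with earlier results of these data known, so these counts and medians are a description only. Zfp36 and Tob1 were the 2 probes that fell at least 2-fold at 4 h in either treatment, as 8.92% of all tested probes did in sham and 8.71% in nsPEF cells.

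The changes at 24 h depended on the scaling for several members. With each array scaled on 6 spike-in probes in place of the 75th percentile, the median of all tested probes moved by 0.70 upwards at 24 h against 0 h in sham cells and by 0.53 in nsPEF cells, and by 0.06 and 0.12 at 4 h against 0 h. Under this scaling Zfp36, Tob1 and Tob2 were still called lower at 24 h than at 0 h, with differences of -3.35, -0.27 and -0.41 in sham cells and of -3.72, -0.56 and -0.32 in nsPEF cells. In contrast, Zfp36l2 stood at 0.47 and Zfp36l1 at 0.22 (probe 1) and 0.37 (probe 2) in sham cells, that is, above 0 h, and probe 2 of Btg1 at 0.06. Their place below 0 h at 24 h (-0.24, -0.48, -0.33 and -0.65 with the 75th percentile) in sham cells therefore depended on the scaling. So did that of probe 1 of Btg1. Its difference in sham cells was 0.04 with the 75th percentile (adjusted p = 0.546) and 0.75 with the spike-in probes (adjusted p = 1.21e-07). In nsPEF cells it was -0.15 (adjusted p = 0.0255) and 0.37 (adjusted p = 0.000555). In nsPEF cells probe 2 of Btg1 was still called lower under the spike-in scaling (-0.39, adjusted p = 0.00132) and probe 1 of Zfp36l1 was at -0.15 (adjusted p = 0.23), while Zfp36l2 was at 0.12 and probe 2 of Zfp36l1 at 0.29. Zc3h12a stood higher at 24 h than at 0 h under this scaling, by 0.97 in sham and 0.88 in nsPEF cells (adjusted p = 2.97e-07 and 1.68e-06).

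**Figure D3:**
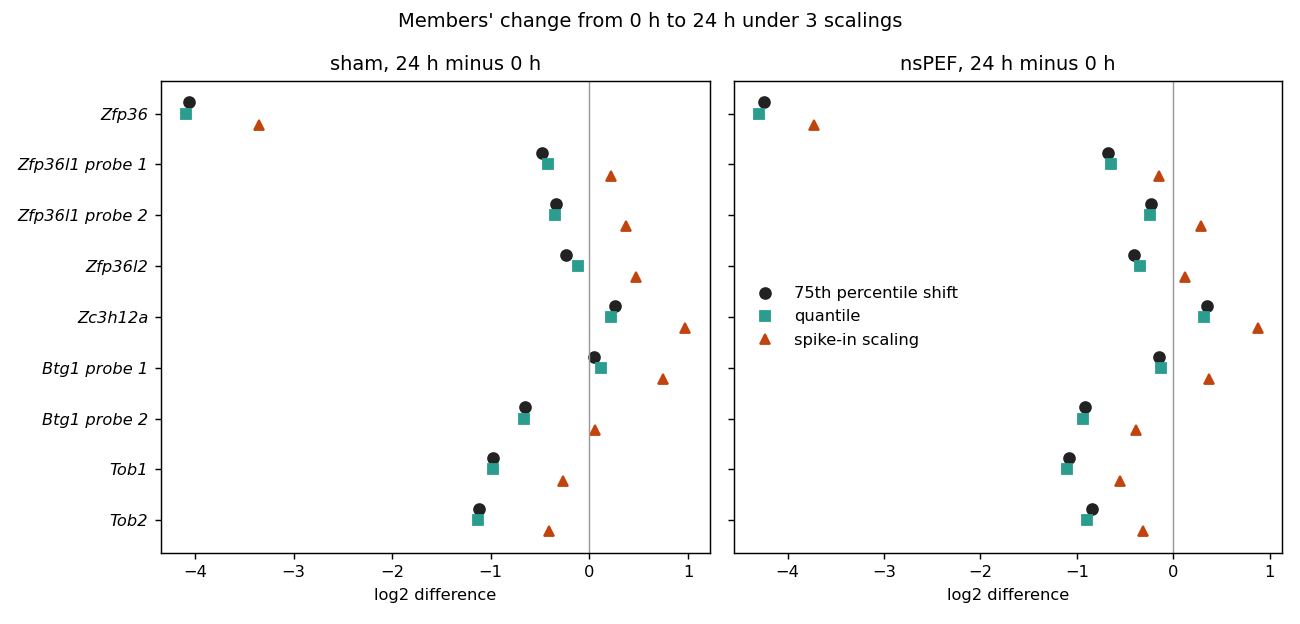
Log2 difference between 24 h and 0 h (horizontal axis) for each member probe (rows) in sham (left) and nsPEF cells (right), with the 75th percentile shift (circles), quantile normalization (squares) and spike-in scaling (triangles). The triangles lie to the right of the other marks by about the shift of all probes, and only for Zfp36, Tob1 and Tob2 do all 3 marks stay left of 0 in both treatments.

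Between nsPEF and sham cells, Tob1 at 4 h was the only member called. At 0 h 0 of the 9 probes were called higher or lower in nsPEF than in sham cells (0.0557% and 0.0478% of all tested probes were). At 4 h 0 were called higher and 1 lower (1.74% and 1.74% of all probes), and at 24 h 0 were called either way (2.49% and 2.78%). At an unadjusted p under 0.05, limma gave 1, 4 and 3 of the 9 probes at the 3 time points, against 9.6%, 21.3% and 22.2% of all probes. The groups did not overlap for 0, 4 and 2 probes, against 8.29%, 13.9% and 14.3% of the probes measured on all arrays.

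Tob1 was lower in nsPEF than in sham cells at 4 h by 0.31 on the log2 scale (-1.68 ± 0.07 against -1.37 ± 0.05, SD, n = 4 each, SE of the difference 0.06, 1.24-fold, adjusted p = 0.00895). No nsPEF array reached the lowest sham array, and the two-sided exact permutation p was 0.0286, the smallest that 4 against 4 arrays allow (0.129 after adjustment over the 27 exact tests of the members). At 0 h and 24 h the difference was 0.01 (95% interval -0.11 to 0.13) and -0.10 (95% interval -0.22 to 0.02). The call was lost when replicate 1 or replicate 3 was left out of all groups (adjusted p = 0.0804 and 0.066), when only the 8 arrays of the 4 h slide were fitted (adjusted p = 0.063), with the spike-in scaling (difference -0.11, adjusted p = 0.353) and with another background correction, normexp (difference -0.11, adjusted p = 0.186).

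The other members had no called difference between the treatments in this fit. With array quality weights probe 1 of Zfp36l1 and both probes of Btg1 were called lower in nsPEF cells at 24 h (adjusted p = 0.0159, 0.0165 and 0.0188), where 19.8% of all tested probes were called against 5.27% without weights, and without replicate 1 of nsPEF at 24 h probe 2 of Btg1 was (adjusted p = 0.0375). For Zfp36 the 95% interval of nsPEF minus sham ran from -0.14 to 0.25 at 0 h, from -0.13 to 0.25 at 4 h and from -0.33 to 0.05 at 24 h. Zfp36l2 at 4 h was 0.19 higher with no overlap between the groups (adjusted p = 0.0933), and so were probe 2 of Zfp36l1 (0.24, adjusted p = 0.137) and probe 2 of Btg1 (0.25, adjusted p = 0.106). Probe 1 of Btg1 at 24 h was 0.15 lower with no overlap (adjusted p = 0.0968), and probe 2 of Zfp36l1 at 24 h was 0.15 higher with no overlap (adjusted p = 0.33). For Zc3h12a the interval at 24 h ran from -0.13 to 0.33. With the spike-in scaling, which moved the median of all tested probes by 0.21 in nsPEF against sham cells at 4 h, 4 probes were called higher in nsPEF cells at 4 h, namely Zfp36l2 (0.39), probe 2 of Zfp36l1 (0.45) and both probes of Btg1 (0.29 and 0.45), with adjusted p of 0.00647, 0.0129, 0.0239 and 0.0068. Under that scaling 20.5% of all tested probes were called between the treatments at 4 h, against 3.48% with the 75th percentile.

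**Figure D4:**
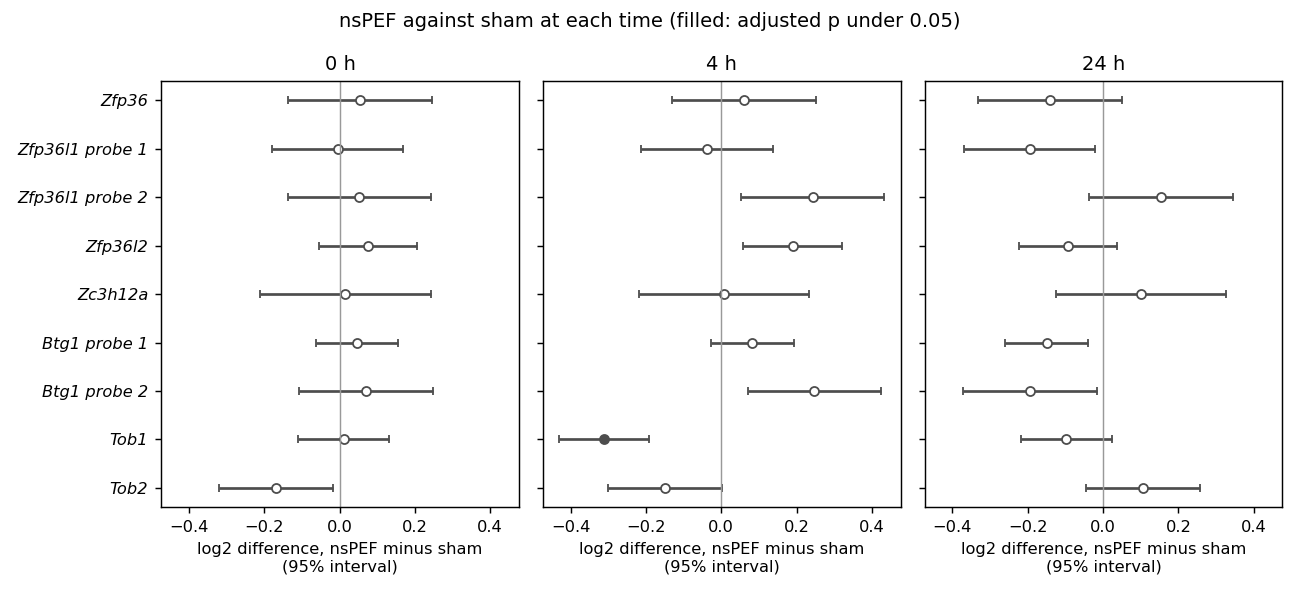
Log2 difference between nsPEF and sham cells (horizontal axis) for each member probe (rows) at 0, 4 and 24 h (panels), with 95% intervals, filled where the adjusted p was under 0.05. Tob1 at 4 h, at -0.31, is the only filled point, and with spike-in scaling it is not called.

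The course over time was also compared between the treatments with an F test of the interaction. Of the 9 probes 0 were called, against 0.361% of all tested probes, and 5 had an unadjusted p under 0.05, against 16.4% of all probes. The lowest adjusted p was that of Tob1 (0.119), whose change from 0 h to 4 h was more negative by 0.32 (SE 0.08) in nsPEF cells. The adjusted p was 0.146 for probe 2 and 0.186 for probe 1 of Btg1, 0.206 for Zfp36l2 and 0.247 for Tob2.

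The genes whose course was most like that of Zfp36 were themselves early response genes. Likeness was measured as the Euclidean distance over the 6 group means, each centred on its own mean, among 12344 genes that were well above background on all arrays. The 3 nearest to Zfp36 were Btg2, an antiproliferative relative of Btg1 (distance 0.65), Jun, a subunit of AP-1 (0.65), and Dusp1, a phosphatase of MAP kinases (0.69). They fell from 0 h to 4 h in sham cells by 4.26, 3.79 and 3.95 on the log2 scale. Serpina3i was among the 3 genes nearest to Tob1 (distance 0.28), with a difference of -2.06 at 4 h in sham cells. Ifi35, Nbl1 and Klf6 were nearest to Tob2, with differences of -1.13, -0.92 and -1.01 at 24 h against 0 h. Paqr6, Kdm6b and Flnc were nearest to Zfp36l2, with differences of 0.59, 0.77 and 0.60 at 4 h.

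The complexes with which the members work moved in both directions in sham cells by 4 h. Each gene of a list is represented by its brightest tested probe. Of all tested probes 29.0% were called higher and 30.3% lower at 4 h in sham cells. Of the 12 genes of CCR4-NOT 5 rose, 3 fell and 4 were not called, with a median difference of 0.14 against -0.01 for all tested probes. Among its 4 nuclease subunits Cnot7 rose (difference 0.64, adjusted p = 5.61e-09), Cnot6l and Cnot6 fell (-0.69 and -0.22, adjusted p = 2.19e-10 and 0.000351) and Cnot8 rose by 0.18 (adjusted p = 0.00211), while Cnot4, a ubiquitin ligase, rose by 0.50. Of 9 other deadenylases and poly(A) binding proteins 4 rose and 4 fell. Noct, the deadenylase-like nocturnin, rose by 3.33 (SE 0.08, adjusted p = 6.37e-18) and Pabpc4 by 0.73, whereas Angel1 and the poly(A)-specific nuclease Parn fell by 1.35 and 0.90 on the log2 scale.

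Of the 20 genes of decapping and 5′ to 3′ decay 10 rose and 6 fell at 4 h. The cofactors of decapping Dcp1a and Dcp1b moved apart, with differences of 0.84 and -2.20 (adjusted p = 2.25e-08 and 2.27e-15), Lsm1, of the ring that binds shortened tails, rose by 0.93 and the exonuclease Xrn1 fell by 0.62. Of the 16 genes of the RNA exosome and its helpers 8 rose and 4 fell, with Exosc1 and Exosc6 at 1.32 and 1.22 and Skiv2l and Exosc2 at -0.49 and -0.39. All 16 tested genes for other proteins that bind AU-rich elements or stem-loops were called, 12 higher and 4 lower, with a median difference of 0.67, where 29.0% of all tested probes were called higher and 30.3% lower. Cpeb4 and Cpeb2 rose by 1.72 and 1.54, and Cpeb3 and Tia1 fell by 0.96 and 0.83 on the log2 scale.

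**Figure D5:**
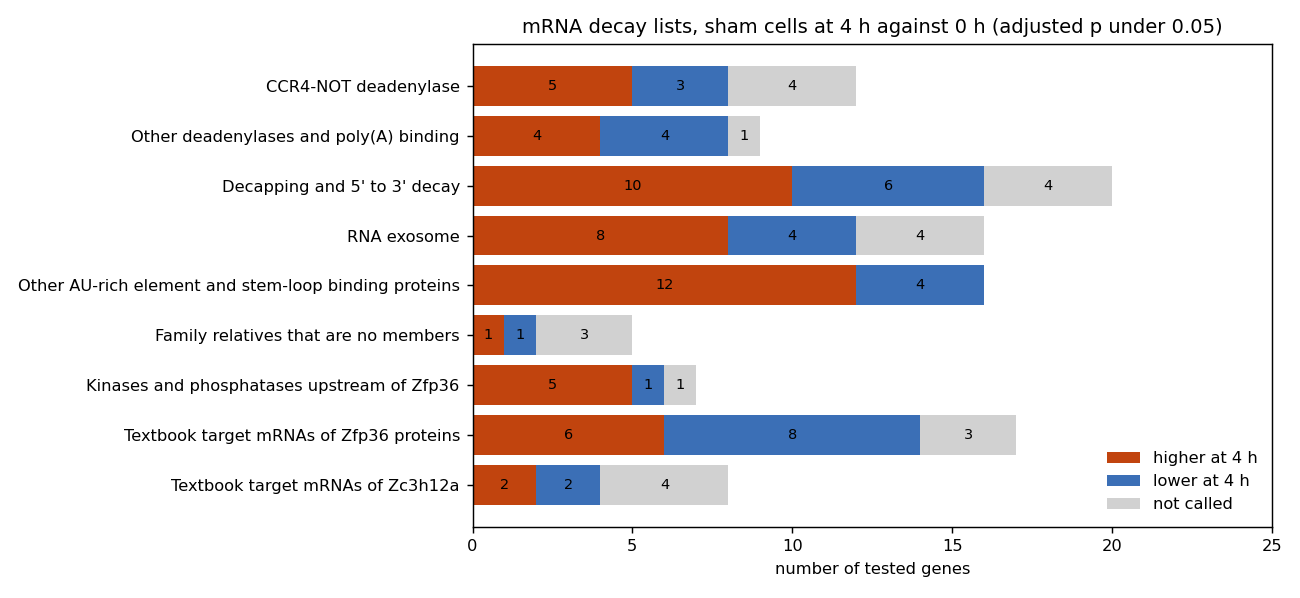
Number of tested genes (horizontal axis) in each of 9 lists (rows) that were called higher (red), called lower (blue) or not called (grey) in sham cells at 4 h against 0 h. Every list holds genes of both directions, with 12 of 16 called higher among the other binding proteins and 8 of 17 called lower among the textbook targets of the Zfp36 proteins. Of all tested probes 29.0% were called higher and 30.3% lower.

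Of the 7 kinases, phosphatases and 14-3-3 proteins upstream of Zfp36 5 rose and 1 fell at 4 h in sham cells. The fall was that of Dusp1 (-3.95, adjusted p = 2.87e-19), and Mapkapk3 and Ywhaz rose most (0.90 and 0.55). Of 5 tested relatives of the members outside the 7 genes, Btg2 fell (-4.26), Zc3h12c rose (0.95) and 3 were not called. In this comparison 29.0% of all tested probes were called higher and 30.3% lower.

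Textbook target mRNAs of the Zfp36 proteins moved in both directions at 4 h. The arrays measured RNA only, and an effect of the Zfp36 proteins on these targets was not tested. Of 17 tested targets 6 rose, 8 fell and 3 were not called in sham cells, and the median difference was -0.01, as in all tested probes. Of all tested probes 29.0% were called higher and 30.3% lower. Plaur, the urokinase receptor, rose by 3.21 (adjusted p = 4.19e-20) and Csf2 was at least 1.62-fold higher at 4 h, since it was not well above background on any sham array at 0 h (adjusted p = 0.000135). Fos fell by 7.29 on the log2 scale (adjusted p = 3.89e-20), and Cxcl2, whose 4 sham arrays at 4 h were none of them well above background, was at least 5.66-fold lower (adjusted p = 8.46e-13). At 24 h 2 of the 17 targets were called higher and 7 lower than at 0 h. The shares of all tested probes were 18.1% and 18.6%. Of 8 tested targets of Zc3h12a, among them Zc3h12a itself with no called change, 2 rose and 2 fell at 4 h. Tnfrsf4 rose by 3.37 and Il6 by 0.60, and Cxcl1 fell by 0.77 and Nfkbiz by 0.30. Il6, Cxcl1 and Nfkbiz are also among the targets of the Zfp36 proteins. Il12b and Il2 were well above background on only 3 and 2 of the 4 sham arrays at 0 h.

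Between nsPEF and sham cells some genes of these lists differed. In CCR4-NOT, Cnot11 was lower in nsPEF cells at 4 h (-0.23, adjusted p = 0.0456) and Cnot8 at 24 h (-0.19, adjusted p = 0.0262), and among the decay factors Dcp1b was lower (-0.30, adjusted p = 0.0286) and Exosc6 higher (0.32, adjusted p = 0.0151) at 24 h. Angel1 was higher at 4 h (0.64, adjusted p = 0.0172), Tia1 was lower at 24 h (-0.38, adjusted p = 0.00756) and Dusp1 was lower at 24 h (-0.45, adjusted p = 0.00277). Of the 17 targets of the Zfp36 proteins 4 were called higher and 0 lower at 4 h, and 1 was called higher and 5 lower at 24 h, where 1.74% of all tested probes were called each way at 4 h and 2.49% and 2.78% at 24 h. Il6 (-0.40, adjusted p = 0.0389), Nfkbiz (-0.29, adjusted p = 0.0352) and Fos (-0.49, adjusted p = 0.0171, 3 of 4 sham arrays) were lower at 24 h. Cxcl2, 1 of the 4 at 4 h and the 1 at 24 h, was called higher but lay at background level in all these groups, so no fold is given. Of all tested probes 0.103% were called between the treatments at 0 h, 3.48% at 4 h and 5.27% at 24 h. Counted once each, 15 list genes were called between the treatments at any time. This number was 1 without replicate 3, 3 without replicate 2 and 4 without replicate 4 of all groups, 8 and 7 without replicates 2 and 3 of sham at 24 h, 1 with each slide alone and 8 with normexp, but 38 with spike-in scaling and 36 with array quality weights.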

How the data were processed

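Per the labels and file headers, each sample was read on a one-colour Agilent array with Feature Extraction 12.0. The deposited scanner values are intensities, already background corrected in the processed signal, and the authors also deposited normalized log2 values, which served as an alternative only. Here log2 of the processed signal was shifted by the 75th percentile of the 59305 transcript spots of each array, and spots of a probe were averaged. A probe was kept if 2 or more of the 4 arrays in some group had it well above background (37687 probes). A fit of 6 group means over 24 arrays by limma (version 3.58.1, run under R 4.3.3) gave the differences, and p-values were adjusted by Benjamini-Hochberg over all kept probes at a threshold of 0.05. Figures were drawn with matplotlib 3.10.9 in python 3.11.15. The labels give 4 biological replicates a group, and their number limits the precision. Groups were taken from the sample labels, and 0 value columns were left without a sample. The members and the 9 gene lists were chosen with earlier results of these data known. All member probes were reported. Of each list the 2 called genes that rose and the 2 that fell most by 4 h in sham cells were named, with those called between treatments (the 3 largest where there were more than 3) and the 3 genes nearest to a member, of which some are not reported here. Cnot6 and Cnot6l are among these by their fall. The steps were tested on simulated data.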

Additional observations from a re-analysis of the deposited data

Results flagged for a closer look

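In nsPEF cells at 24 h, Zc3h12a read -1.89 in replicate 1 and -1.39, -1.43 and -1.43 in the other 3 replicates. The gap between replicate 1 and its nearest neighbour made up 0.92 of the range of the group, above the critical value of Dixon's test for 4 samples. Of 54 groups of 4 arrays tested over the 9 member probes, 1 was marked in this way, while chance marks about 1 in 20.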

How the results depend on the processing

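The alternatives were other scalings, background corrections, filters and tests, the deposited log2 values, a fit of each slide alone, array weights, the mean of a gene's probes and the omission of arrays, and the percentile over probes was added after seeing the data. Zfp36 and Tob1 kept their calls at 4 h and 24 h against 0 h in both treatments under all 42, and so did Tob2 at 24 h. With spike-in scaling the differences that turned their sign and were called under at least 1 of both scalings were, in sham cells at 24 h against 0 h, 0.22 and 0.37 for probes 1 and 2 of Zfp36l1, 0.47 for Zfp36l2 and 0.056 for probe 2 of Btg1, at 24 h against 4 h 0.63 for probe 1 of Zfp36l1 and 0.52 for probe 2 of Btg1, and in nsPEF cells at 24 h against 0 h 0.29 for probe 2 of Zfp36l1, 0.12 for Zfp36l2 and 0.37 for probe 1 of Btg1. With the mean of a gene's probes Btg1 gave 0.085 and 0.19 at 4 h against 0 h in sham and nsPEF cells and -0.30 at 24 h against 0 h in sham cells, Zfp36l1 gave 0.20 at 24 h against 4 h, and 5 rather than 8 were called at 4 h in sham cells, 7 genes being counted in place of 9 probes. Between nsPEF and sham at 4 h, 1 member probe was called in the main analysis, 4 with spike-in scaling (20.5% of all probes, against 3.48%), 2 with the percentile over detected probes, 0 with normexp, 0 with the slide alone and 0 to 1 on leaving out arrays (0 without replicate 1 or replicate 3). At 24 h 0 were called, 1 with quantile normalization, 3 with array weights (where 19.8% of all probes were called, against 5.27%) and 0 to 1 on leaving out arrays. For the interaction 0 were called, 3 with spike-in scaling, 3 with array weights and 0 to 1 on leaving out arrays, where replicate 1 of nsPEF at 24 h gave the 1 in both cases. Of the 27 exact tests between treatments, 6 had an unadjusted p under 0.05, and 3 with normexp. Other causes were not tested. According to the paper, the assays of a biological replicate shared a cell suspension, so same-numbered sham and nsPEF arrays may be paired. Same-numbered arrays of a slide correlated between -0.05 and 0.10 in their deviations, with 0 of 12 pairs over 0.1. Their median was 0.046, against -0.0095 for other pairs of a slide. These correlations cannot decide whether the samples are paired, and the main fit used no pairing. With the replicate number as a block, 7, 7 and 7 probes were called over time in sham cells, 7, 8 and 7 in nsPEF cells, 0, 1 and 0 between treatments and 0 for the interaction. Probes not well above background limited the list genes Csf2 and Cxcl2 to bounds.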

Other observations

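Other genes had courses close to those of the remaining members, by the same distance over the 6 centred group means. Ndfip1, Pcf11 and Scd2 were nearest to probe 1 of Zfp36l1 (distances 0.05, 0.05 and 0.07), with differences of -0.43, -0.45 and -0.47 at 4 h against 0 h in sham cells. Clint1, Extl2 and Tsc22d2 were nearest to probe 1 of Btg1 (0.08, 0.08 and 0.09), with differences of 0.71, 0.73 and 0.70. Scamp3, Rac3 and Fen1 were nearest to Zc3h12a (0.06, 0.07 and 0.07), with differences of 0.20, 0.33 and 0.22 at 24 h against 0 h.

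In nsPEF cells the decay lists had counts at 4 h against 0 h near those of sham cells. Of the 16 tested genes for other binding proteins 12 were higher and 4 lower, of the 12 genes of CCR4-NOT 6 were higher and 3 lower, and of the 20 genes of decapping and 5′ to 3′ decay 11 were higher and 3 lower, where 32.8% of all tested probes were called higher and 28.4% lower. At 24 h against 0 h 4 targets of the Zfp36 proteins were higher and 10 lower of 17 in nsPEF cells, where 24.1% of all tested probes were called higher and 18.3% lower.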
